A study of Mus musculus with 16 samples.

Results

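The 10 genes described here code for enzymes that build, desaturate and elongate fatty acids in the mouse: Acaca, Fasn, Scd1, Scd2, Elovl6, Fads1, Fads2, Fads3, Elovl5 and Elovl2. They were taken by gene symbol, 1 Ensembl ID per symbol, from a table of raw read counts with 46603 gene IDs. All 10 passed the filter on low counts, which left 17055 genes for testing. The set was selected on measured values, since it was proposed after Fads2 had been called lower with beta-sitosterol over both times. Results of the sterol comparisons at 1 h and at 6 h were also known. Member values of beta-sitosterol against vehicle are therefore a description with no test. The comparisons between times, and of the sterol's effect between times, were not used in that choice and were tested. The latter is the difference of the sterol values at 6 h and 1 h, so it is not independent of values already known. The comparisons between times use the same mice and the same estimate of each gene's spread as the sterol comparisons. They are therefore not fully independent of the choice either.

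Hippocampi came from wild-type mice of the inbred strain C57BL/6, with no transgene or deletion in any group. Each mouse had an intraperitoneal injection of vehicle or of beta-sitosterol, which plants make and which resembles cholesterol, at a dose of 100 mg/kg. The tissue was dissected 1 h or 6 h later, and each of the 4 groups had 4 mice: vehicle 1 h (mice 2 to 5), beta-sitosterol 1 h (mice 6 to 9), vehicle 6 h (mice 11 to 14) and beta-sitosterol 6 h (mice 17 to 20). The sources used here give neither age and sex nor what the vehicle was, and no group without an injection was analysed. Levels of a gene between mice are given as CPM, which sets read counts relative to the TMM-scaled library size.

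Fatty acid synthesis starts in the cytosol, where acetyl-CoA carboxylase makes malonyl-CoA and fatty acid synthase joins these units into palmitate. Membrane enzymes of the endoplasmic reticulum then lengthen the chain, as the ELOVL elongases do, or place double bonds in it, as the stearoyl-CoA desaturases do for monounsaturated and the FADS desaturases for polyunsaturated chains. The brain is rich in long polyunsaturated chains such as docosahexaenoic acid, and myelin is rich in monounsaturated ones. SREBP transcription factors and liver X receptors, which both respond to sterols, are known activators of many of these genes in liver.

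Libraries held 24815581 to 31266644 counted reads, and single members held 409 to 54348 reads per library, fewest for Elovl2 and most for Scd2. The 8 neuronal markers listed for the hippocampus were all detected, among them Prox1, a dentate granule cell factor, and Fibcd1, a CA1 marker. Their summed levels were 957 to 1493 CPM over all groups. No other region was compared, so these levels do not test the hippocampal label. Choroid plexus tissue, an epithelium beside the hippocampus, varied within groups. Its marker Ttr ranged from 45.8 to 6136 CPM and fell short of 100 CPM in 4 libraries: mouse 5 (vehicle, 1 h), mouse 14 (vehicle, 6 h) and mice 17 and 19 (beta-sitosterol, 6 h). The libraries of vehicle 1 h mouse 3 and beta-sitosterol 1 h mouse 9 had the most negative trends of level on transcript length, -0.057 and -0.036 log2 units per log2 of length. In whole tissue, fewer cells of a type and less RNA per cell cannot be told apart.

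The genes fall into gene clusters and isolated loci (build GRCm38). On chromosome 19, Fads3 (10041569 to 10060110, plus strand), Fads2 (10062765 to 10101746, minus strand) and Fads1 (10182888 to 10196877, plus strand) are neighbours. Fads3 and Fads2 lie 2654 bases apart, and Fads2 and Fads1 81141. Farther along that chromosome, Scd2 (44293674 to 44306864, plus strand) and Scd1 (44394455 to 44407879, minus strand) lie 87590 bases apart. The elongases are spread over chromosome 13 (Elovl2, 41182381 to 41220405, minus strand), chromosome 9 (Elovl5, 77917364 to 77984519, plus strand) and chromosome 3 (Elovl6, 129532355 to 129638495, plus strand). Fasn (120805846 to 120824547, minus strand) and Acaca (84129672 to 84401651, plus strand) are both on chromosome 11.

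The promoters of Fads2 and Elovl5 are shown because these were the members that passed the test between times. They are RefSeq windows on GRCm38.p6 that run from 250 bases before to 50 bases after the annotated start, at chr19:10101454-10101753 on the minus strand for Fads2 and at chr9:77917115-77917414 on the plus strand for Elovl5. Capitals mark motifs found by their letters on either strand.
Fads2: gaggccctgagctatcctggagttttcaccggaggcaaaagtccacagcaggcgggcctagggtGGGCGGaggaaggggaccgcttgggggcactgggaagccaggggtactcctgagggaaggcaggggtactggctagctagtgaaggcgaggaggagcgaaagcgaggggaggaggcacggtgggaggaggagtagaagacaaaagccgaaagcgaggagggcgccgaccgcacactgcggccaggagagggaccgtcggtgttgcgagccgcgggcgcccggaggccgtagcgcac
Elovl5: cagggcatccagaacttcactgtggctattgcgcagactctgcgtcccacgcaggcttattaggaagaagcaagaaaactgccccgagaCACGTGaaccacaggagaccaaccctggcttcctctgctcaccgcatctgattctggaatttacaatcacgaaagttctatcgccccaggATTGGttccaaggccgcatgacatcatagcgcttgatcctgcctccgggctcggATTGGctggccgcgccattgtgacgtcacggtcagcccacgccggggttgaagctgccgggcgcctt

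The Fads2 window holds 1 GC box (GGGCGG), which begins 186 bases before the RefSeq start. That start differs from the gene span given above, which on the minus strand begins at 10101746. Most of the Fads2 window, with the GC box, therefore lies inside that span. The Elovl5 window holds no GC box but an E box (CACGTG), which begins 161 bases before the start, and 2 CCAAT boxes on the opposite strand, at 71 and 17 bases before it. Of the 32851 mouse promoters in the same table, 35.7% hold a GC box, 37.4% a CCAAT box and 7.15% the E box. The letters TCACNCCAC of a sterol regulatory element, present in 1.24% of those promoters, and a liver X receptor element of the DR4 type, AGGTCA repeated after 4 free bases and present in 0.015%, were found in no window of the 7 members in the table, which include Fads3, Elovl2, Elovl6, Fasn and Acaca. The Acaca window, 84195188 to 84195487 on the plus strand, stands at an internal start, since the gene span given above begins at 84129672. The region before that first base of Acaca was not searched. A window without these letters says nothing about binding elsewhere.

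Per length, the genes spanned a wide range of levels, led by the stearoyl-CoA desaturase of the brain. In TPM, a share of all transcripts computed from reads per kilobase of annotated exon, Scd2 stood at 1136 ± 67.4 (SD, n = 16), 5.08-fold above Fads1 at 224 ± 13.3. Scd1 followed at 162 ± 21.6, Fads2 at 134 ± 13.3 and Fasn at 125 ± 11.0. The ranges of each neighbouring pair from Fads1 down to Fasn overlapped between mice, so their order is not beyond the spread. Elovl5 at 72.8 ± 4.55 TPM and Elovl6 at 37.5 ± 2.87 TPM each lay below the gene before them in every mouse. Fads3 had 30.2 ± 1.92 TPM, Acaca 23.2 ± 1.14 TPM and Elovl2 17.7 ± 1.51 TPM, with overlap between Elovl6 and Fads3 and between Acaca and Elovl2. The place of Acaca depends on the length used: by the longest annotated transcript it had 32.9 TPM and rank 7 in place of 9.

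**Figure D1:**
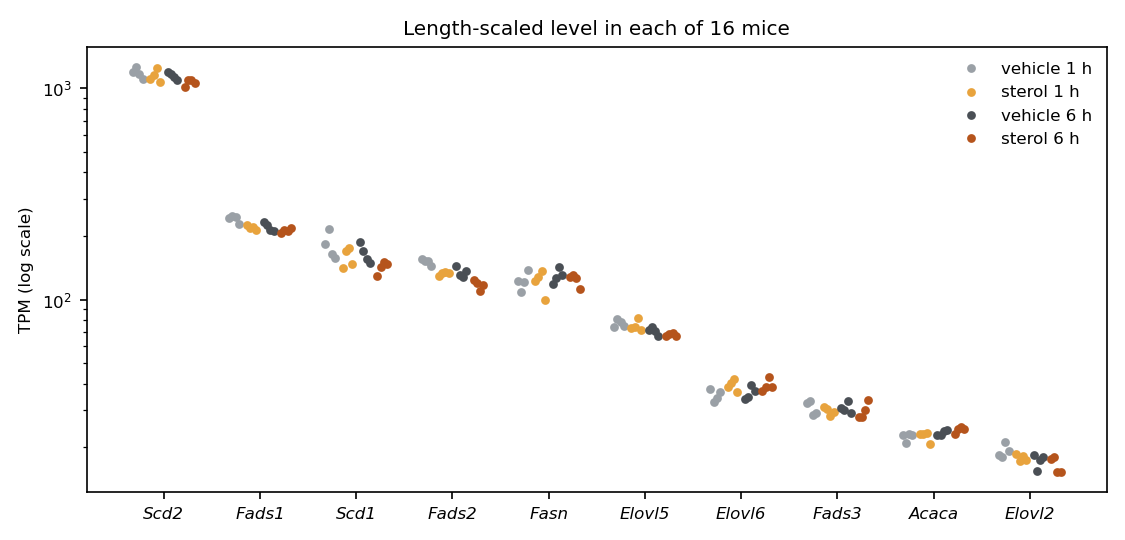
Length-scaled level (TPM, log axis) of the 10 genes in each of the 16 libraries, 1 point per mouse coloured by group, ordered by the mean. Scd2 lies apart at the top, above 1017 TPM in every mouse, and Elovl2 is lowest at a mean of 17.7 TPM.

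Some of these counts may share reads with related genes. Of all stretches of 50 bases in its exons, Acaca shares 30.4% with another gene, most of them with Gm5182. The value of Acaca is therefore uncertain where reads were split. The share was 4.56% for Scd1, mostly with Scd3, 3.97% for Scd2, mostly with Scd1, 3.98% for Elovl6, 0.152% for Fads2, 0.127% for Fads3, and 0 for Fads1, Elovl2, Elovl5 and Fasn. Scd3 itself had 42 to 92 reads per library and Scd4 had 9 to 24, against at least 4461 for Scd1. Exons of Scd2 overlap Mir5114 over 61 bases on the same strand, and those of Elovl6 overlap Gm35986 over 34 bases on the opposite strand.

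The enzymes that start the chain overlapped between all 4 groups. Acaca, which makes malonyl-CoA, ranged from 97.6 to 110.4 CPM over the 16 mice, with group means of 103 ± 3.10 CPM (SD, n = 4) in vehicle 1 h, 101 ± 2.34 in beta-sitosterol 1 h, 104 ± 2.63 in vehicle 6 h and 106 ± 3.90 in beta-sitosterol 6 h. It had the smallest coefficient of variation of the 10 genes over all mice, 3.27%. Fasn, the synthase that makes palmitate, ranged from 302 to 404 CPM, with group means of 361 ± 26.3, 349 ± 35.1, 370.2 ± 26.5 and 349 ± 22.4 CPM in the same order.

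The stearoyl-CoA desaturases, which make oleate-type monounsaturated chains, had lower means with beta-sitosterol at both times, and Scd1 varied most between mice, with a coefficient of variation of 15.4% over all 16. Scd1 (ENSMUSG00000037071) had 234, 298, 220.3 and 203 CPM in vehicle mice 2, 3, 4 and 5 at 1 h, and 177, 216, 218 and 199 CPM in beta-sitosterol mice 6, 7, 8 and 9. At 6 h it had 239, 216, 197 and 191 CPM in vehicle mice 11, 12, 13 and 14, and 162, 179, 189 and 186 CPM in beta-sitosterol mice 17, 18, 19 and 20. Mouse 3 was the highest of all, the groups overlapped at 1 h, and at 6 h all treated mice were under the lowest vehicle mouse. The log2 fold change with the sterol was -0.24 at each time, with an SE of 0.104. Leaving out single mice moved it between -0.31 and -0.11 at 1 h and between -0.28 and -0.17 at 6 h.

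Scd2 (ENSMUSG00000025203), the main form in brain, had 1699, 1933, 1744 and 1589.7 CPM in vehicle mice 2 to 5 at 1 h and 1551, 1654, 1744 and 1612 CPM in treated mice 6 to 9. At 6 h it had 1699, 1668, 1596 and 1564 CPM in vehicle mice 11 to 14 and 1420.3, 1533, 1545 and 1498 CPM in treated mice 17 to 20. The groups overlapped at 1 h and did not at 6 h, where the log2 difference with the sterol was -0.12 (SE 0.0636).

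Elovl6, which extends palmitate to stearate, the substrate of the stearoyl-CoA desaturases, went the other way. It had 62.9, 59.3, 59.8 and 62.0 CPM in vehicle mice 2 to 5 at 1 h and 63.6, 67.8, 69.1 and 64.9 CPM in treated mice 6 to 9. All 4 treated mice lay above all 4 vehicle mice there, with a log2 difference of 0.12 (SE 0.0544). At 6 h the vehicle mice had 56.9, 58.2, 65.2 and 61.9 CPM and the treated mice 60.8, 63.5, 71.2 and 63.9 CPM, which overlap, with a log2 difference of 0.100 (SE 0.0544).

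**Figure D2:**
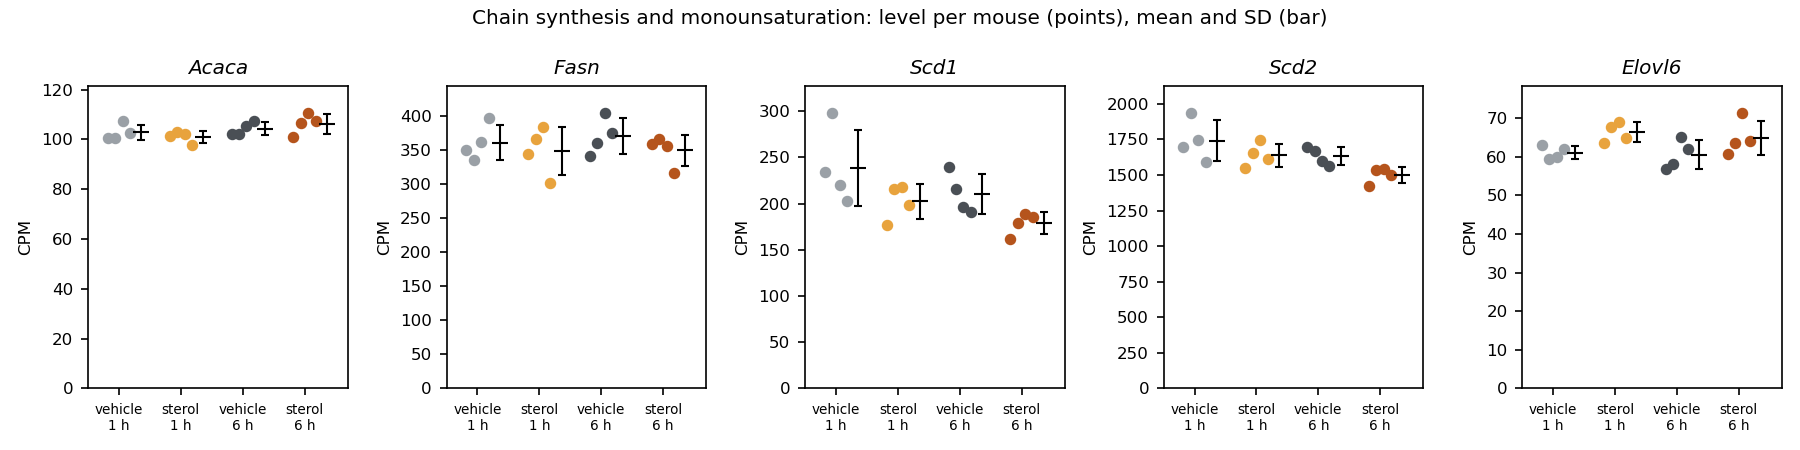
CPM of Acaca, Fasn, Scd1, Scd2 and Elovl6 per mouse (points) in the 4 groups, with the mean and SD of 4 mice as a bar beside each group; each axis starts at 0. Scd1 and Scd2 do not overlap between the 6 h groups, and vehicle 1 h mouse 3 is the highest point for both.

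Among the polyunsaturated chain genes, Fads2 was lower with the sterol and lower at 6 h than at 1 h. Fads2 (ENSMUSG00000024665) codes for the delta-6 desaturase, which takes the first step from linoleic and alpha-linolenic acid to longer chains. Its levels were 134, 142, 138 and 125 CPM in vehicle mice 2, 3, 4 and 5 at 1 h, and 109, 115, 114 and 121 CPM in beta-sitosterol mice 6, 7, 8 and 9. At 6 h they were 124, 112, 109 and 118 CPM in vehicle mice 11, 12, 13 and 14, and 104, 102, 93.4 and 99.6 CPM in beta-sitosterol mice 17, 18, 19 and 20. Treated and vehicle mice did not overlap at either time. The treated mice at 1 h and the vehicle mice at 6 h covered much the same range, with means of 115 ± 5.08 and 116 ± 6.55 CPM. The log2 difference with the sterol was -0.23 (SE 0.0533) at 1 h and -0.22 (SE 0.0536) at 6 h.

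Fads1 (ENSMUSG00000010663), the delta-5 desaturase that makes arachidonic and eicosapentaenoic acid, had 302, 338, 325 and 289.7 CPM in vehicle mice 2 to 5 at 1 h. The other 3 groups had lower means. Treated mice 6 to 9 had 277, 275, 272 and 284 CPM at 1 h. At 6 h vehicle mice 11 to 14 had 293, 284, 265 and 267 CPM, and treated mice 17 to 20 had 254, 262, 262 and 272 CPM. Vehicle mice overlapped between times, since mouse 11 lay above mouse 5. At 1 h alone did treated mice all lie below vehicle mice, with a log2 difference of -0.18 (SE 0.0517) against -0.079 (SE 0.0518) at 6 h. Fads3, a FADS family member with activity on sphingoid bases, ranged from 26.9 to 35.2 CPM, and all its groups overlapped.

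Elovl5 (ENSMUSG00000032349), which elongates chains of intermediate length after the Fads2 step, had 67.7, 79.9, 75.2 and 69.5 CPM in vehicle mice 2 to 5 and 66.0, 68.1, 73.4 and 70.1 CPM in treated mice 6 to 9 at 1 h. At 6 h it had 66.1, 67.9, 64.7 and 61.6 CPM in vehicle mice 11 to 14 and 60.4, 61.9, 62.9 and 61.1 CPM in treated mice 17 to 20. Treated and vehicle mice overlapped at both times, and all treated mice at 6 h lay below all treated mice at 1 h. Elovl2, which elongates the longest chains on the way to docosahexaenoic acid, had means of 20.5 ± 1.74, 18.5 ± 0.609, 17.8 ± 1.38 and 16.8 ± 1.40 CPM in the 4 groups in the order above. It ranged from 15.6 to 23.0 CPM, and its groups overlapped in each pair that differs by treatment or time alone.

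**Figure D3:**
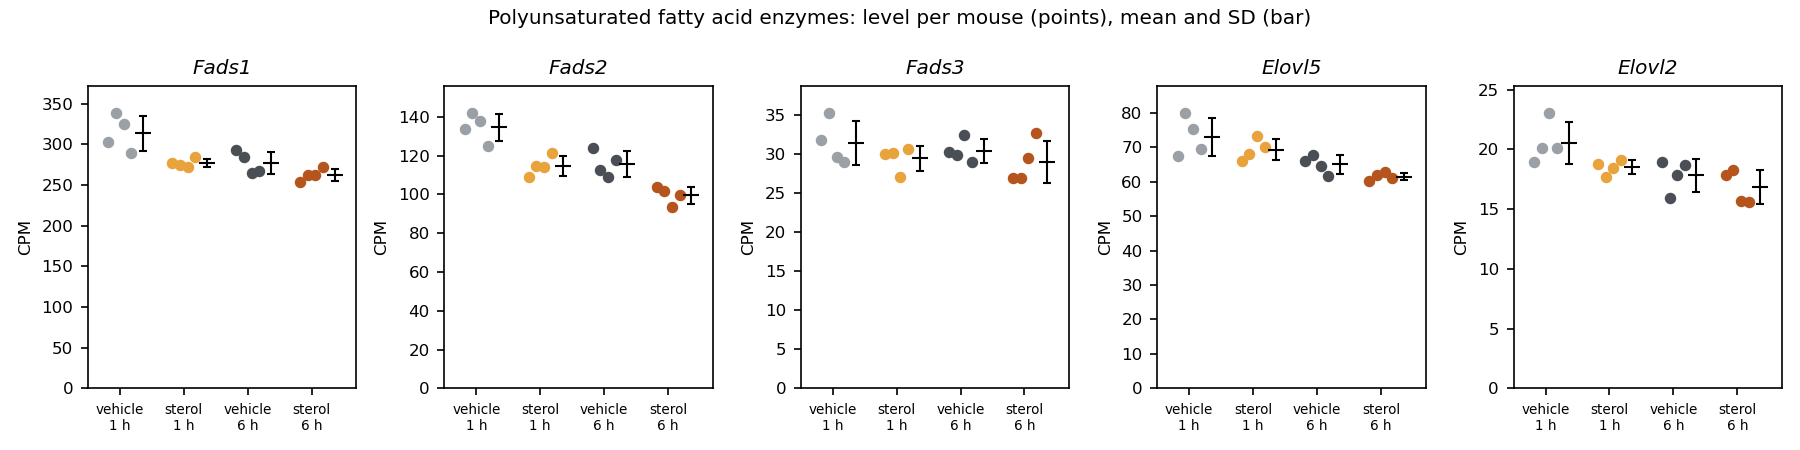
CPM of Fads1, Fads2, Fads3, Elovl5 and Elovl2 per mouse (points) in the 4 groups, with the mean and SD of 4 mice as a bar; each axis starts at 0. Fads2 steps down with the sterol at both times and from 1 h to 6 h, and its lowest point is 93.4 CPM in treated mouse 19 at 6 h.

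Between 6 h and 1 h, averaged over both treatments, Fads2 and Elovl5 fell, and the other 8 genes did not pass the test. Fads2 fell by 0.21 on the log2 scale (SE 0.0378, 95% interval -0.29 to -0.13, edgeR adjusted p = 0.0186), a change of -13.6%. Elovl5 fell by 0.17 (SE 0.0375, 95% interval -0.25 to -0.088, edgeR adjusted p = 0.0452), a change of -11.1%. These are 2 of 10 members called, both lower, where 0.68% of all 17055 genes were called in either direction, 0.475% lower and 0.205% higher. Fads2 was also the only member whose 6 h mice all lay below the 1 h mice within both treatments, as 0.399% of all genes did.

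The call for Fads2 was kept without each of the 16 mice in turn, with adjusted p between 0.00626 and 0.0499. It was lost without the 4 libraries low in Ttr (log2 difference -0.22, adjusted p = 0.0686, 12 libraries) and without mice 3 and 9 (log2 difference -0.18, adjusted p = 0.0611, 14 libraries). With the astrocyte marker score as a covariate the log2 difference was -0.16 and the adjusted p 0.355. The Elovl5 call stood at the edge: its log2 difference lay between -0.19 and -0.15 without single mice, but the adjusted p ran from 0.025 to 0.105. It stayed called without mouse 2, 5, 6 or 11 and was lost without mouse 3, 4, 7, 8, 9, 12, 13, 14, 17, 18, 19 or 20.

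The other members had log2 differences between times of -0.18 (SE 0.0738, adjusted p = 0.241) for Scd1, -0.17 (SE 0.0526, adjusted p = 0.13) for Elovl2, -0.13 (SE 0.0366, adjusted p = 0.11) for Fads1 and -0.11 (SE 0.0449, adjusted p = 0.2255) for Scd2, all by edgeR. Fads3 at -0.034, Elovl6 at -0.022, Fasn at 0.020 and Acaca at 0.047 did not pass either. The median of the 10 was -0.12 against -0.0027 over all genes tested, and 8 of 10 were negative against 51.0% of all genes.

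Within vehicle mice alone the difference between times was -0.22 for Fads2 (SE 0.0533, edgeR adjusted p = 0.173) and -0.17 for Elovl5 (SE 0.0530, adjusted p = 0.322). No member was called (0% of all genes were), while 4 had an unadjusted p under 0.05, as did 10.6% of all genes. DESeq2 called 1 member, Fads2, among 94 genes in all, and limma called 0 genes. Only Fads2 had all 6 h mice below all 1 h mice, as did 2.81% of all genes, and 0 members had all of them above (2% of all genes). Within beta-sitosterol mice the values were -0.20 (SE 0.0536, edgeR adjusted p = 0.4815) and -0.17 (SE 0.0532, adjusted p = 0.599). Here too edgeR called 0 members and 0% of all genes, DESeq2 called 0 members among 14 genes, and limma called 0 genes. An unadjusted p under 0.05 was found for 2 members and for 6.97% of all genes. Fads1, Fads2, Scd2 and Elovl5 had all 6 h mice below all 1 h mice in this arm, as did 2.67% of all genes, and 0 members had all of them above (2.61% of all genes).

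The effect of the sterol did not differ detectably between 6 h and 1 h for any member. By edgeR 0 of 10 members and 0% of all genes were called, no member had an unadjusted p under 0.05, and DESeq2 and limma called 0 members. For Fads2 the difference of the effects was 0.013 on the log2 scale (95% interval -0.15 to 0.18), and for Fads1, the member with the largest value, 0.10 (95% interval -0.059 to 0.26). For every member but Fads2 the 95% interval, such as -0.32 to 0.32 for Scd1, reaches differences larger than the member's own averaged effect, so differences of that size are not excluded.

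Averaged over both times, and as description only, the sterol minus vehicle log2 values were -0.24 (SE 0.0738) for Scd1, -0.22 (SE 0.0378) for Fads2, -0.13 (SE 0.0366) for Fads1, -0.12 (SE 0.0526) for Elovl2 and -0.10 (SE 0.0449) for Scd2. Fads3 at -0.080, Elovl5 at -0.077 and Fasn at -0.066 were closer to 0, Acaca was at 0.00042 and Elovl6 at 0.11 (SE 0.0385). The median of the 10 was -0.092 against -0.013 over all genes tested. By edgeR 1 member was called, Fads2, where 0.0762% of all genes were called, 0.0704% lower and 0.00586% higher, and nothing is read from that count. At 1 h and at 6 h alone edgeR called 0 members and 0% of all genes. There, 4 and 2 members had an unadjusted p under 0.05, as did 10.2% and 12.1% of all genes. DESeq2 called 2 members (Fads1, Fads2) among 54 genes at 1 h and 1 (Fads2) among 123 genes at 6 h, and limma called 0 genes at both times. Nothing is read from these counts either. All treated mice lay below all vehicle mice for Fads1 and Fads2 at 1 h (1.95% of all genes) and for Fads2, Scd1 and Scd2 at 6 h (3.47% of all genes), which leaves Fads2 as the member lower at both times (0.252% of all genes). They lay above for Elovl6 at 1 h (3.04% of all genes) and for 0 members at 6 h (5.5% of all genes).

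**Figure D4:**
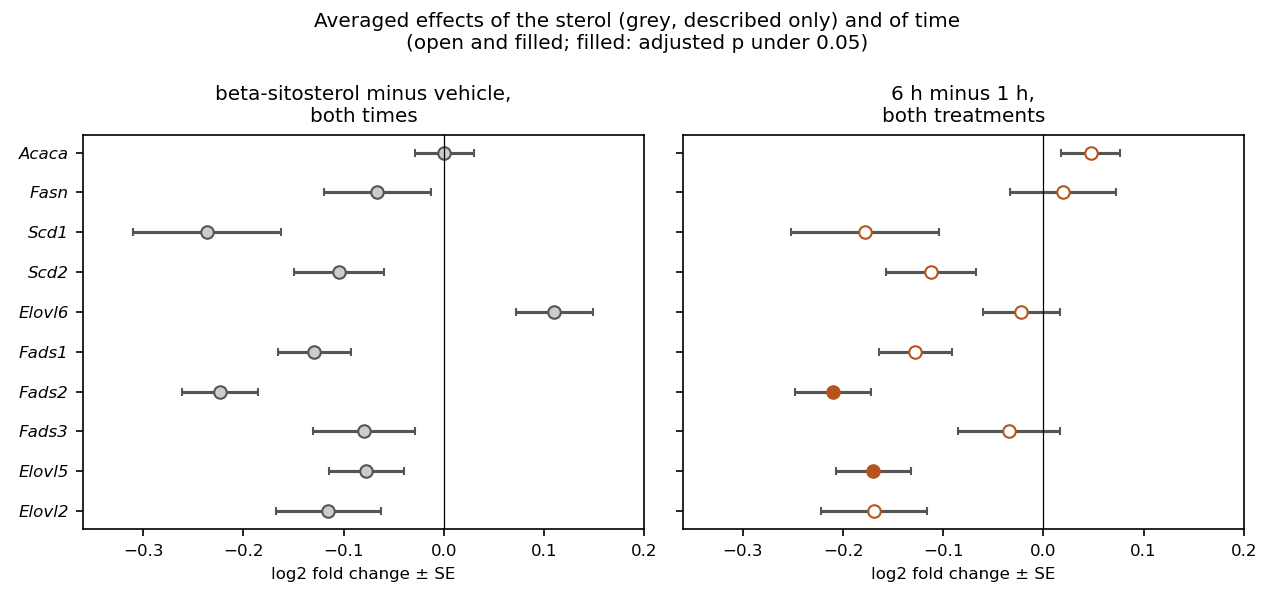
Log2 fold change (point) with its SE (bar) for the 10 genes, sterol minus vehicle averaged over both times at the left (grey, no test) and 6 h minus 1 h averaged over both treatments at the right, where filled points have an edgeR adjusted p under 0.05. Fads2 lies at -0.22 and -0.21, Elovl6 lies right of 0 at the left (0.11), and only Fads2 and Elovl5 are filled.

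Markers of several cell types differed between the same groups. Of 12 astrocyte markers, 12 were negative with the sterol at 1 h (median log2 difference -0.19) and 11 at 6 h (median -0.097). With the sterol over both times 11 were negative (median -0.14), and between times 10 were (median -0.13). Between times, Aqp4, the water channel of astrocyte endfeet, fell by 0.31 (SE 0.0491, edgeR adjusted p = 0.0134), and Gja1, an astrocyte gap junction protein, fell by 0.18 (SE 0.0401, adjusted p = 0.0462). Aqp4 kept its call without each mouse in turn, and Gja1 kept it only without mouse 5, 6 or 11, with adjusted p of up to 0.114. The summed astrocyte markers ranged from 6546 to 7514 CPM in vehicle 1 h, 5983 to 6447 in beta-sitosterol 1 h, 5987 to 6708 in vehicle 6 h and 5539 to 6293 in beta-sitosterol 6 h, and no defining marker was at 0. With the astrocyte score as a covariate, the Fads2 value with the sterol over both times was -0.15 in place of -0.22 and that of Fads1 -0.051 in place of -0.13.

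Of 9 microglia markers, 9 were negative between times (median -0.17), with Cx3cr1, the fractalkine receptor, called (log2 difference -0.23, SE 0.0461, edgeR adjusted p = 0.0254). That call was lost without mouse 4, 7, 12 or 13, with adjusted p of up to 0.0714. It was also lost without the 4 libraries low in Ttr, without mice 3 and 9 together and with the astrocyte score as a covariate. The summed microglia markers ranged from 431 to 497 CPM in vehicle 1 h and from 348 to 403 CPM in beta-sitosterol 6 h. Of 9 neuron markers, 8 were positive between times (median 0.10) and 0 were called by edgeR. Of 8 endothelium markers 5 were positive, and Ly6c1, an endothelial surface protein, rose by 0.45 (SE 0.0859, edgeR adjusted p = 0.0244). The Ly6c1 call was lost without mouse 3, 4, 7, 8, 13 or 14, with adjusted p of up to 0.0627. It too was lost without the 4 libraries low in Ttr, without mice 3 and 9 together and with the astrocyte score as a covariate. The part of microglia, neurons and endothelium in the member values was not tested.

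With the sterol over both times, 9 of 9 microglia markers were negative (median -0.13) and 8 of 9 neuron markers positive (median 0.13), with 0 called by edgeR. Of 8 hippocampal neuron markers, 7 were positive with the sterol over both times (median 0.19) and 7 between times (median 0.093), with 0 called. Red blood cell markers were negative in 5 of 5 between times (median -0.52) and positive in 5 of 5 with the sterol over both times (median 0.093), again with 0 called, and their part in the member values was not tested.

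Of 12 choroid plexus markers, 12 were negative between times (median -0.54) and 0 were called by edgeR. With the sterol 12 of 12 were negative at 1 h (median -0.69) and at 6 h (median -0.61), again with 0 called. Their summed level ranged from 240 to 9957 CPM in vehicle 1 h, 1806 to 3889 CPM in beta-sitosterol 1 h, 257 to 5441 CPM in vehicle 6 h and 283 to 6665 CPM in beta-sitosterol 6 h. Their score, the mean log-CPM, went the other way with the sterol at 1 h: 5.05 ± 2.33 (SD, n = 4) in vehicle and 5.16 ± 0.575 in treated mice. At 6 h the score was 4.76 ± 1.92 in vehicle and 3.71 ± 2.02 in treated mice. With this score as a covariate, the difference between times was -0.20 for Fads2 (edgeR adjusted p = 0.0226) and -0.16 for Elovl5 (adjusted p = 0.0623).

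Between mice of a group, Scd1, Scd2 and Elovl5 followed the markers of oligodendrocytes, the cells that make myelin. After group means were removed, the mean log-CPM of 12 markers such as Mbp, a myelin protein, had a Pearson r of 0.922 with Scd2 (Spearman rho 0.865, n = 16 mice). For Scd1 r was 0.901 (rho 0.847) and for Elovl5 0.805 (rho 0.800). The permutation p of r was 1e-05 for Scd2 and Scd1, the smallest that 100000 permutations give, and 0.00022 for Elovl5. After Benjamini-Hochberg adjustment over the 20 relations computed, p was 0.0001, 0.0001 and 0.00147 for r, and 0.0007, 0.0007 and 0.00287 for rho. Without mice 3 and 5, farthest from the median score, r was 0.83 for Scd2, 0.803 for Scd1 and 0.686 for Elovl5.

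Fads1 had r = 0.661 with the same score (rho 0.491, permutation p adjusted over the 20 relations 0.0275 and 0.159), and r = 0.312 without those mice, so its relation rests on them. Fads2 had r = 0.327 (rho 0.141, permutation p adjusted 0.335 and 0.707). The remaining 5 genes had r between -0.30 and 0.49, none with an adjusted p under 0.05. With the astrocyte score no member passed the adjustment; Fads1 had the highest r, 0.582 (rho 0.521, permutation p adjusted 0.0724 and 0.156), and Fads2 had 0.498 (rho 0.591, adjusted 0.146 and 0.0865). The points share libraries, and mouse 3, with the highest oligodendrocyte score for its group, also had the highest Ttr and the most negative length trend, while mouse 5 had the lowest Ttr. The labels give no batch or date.

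**Figure D5:**
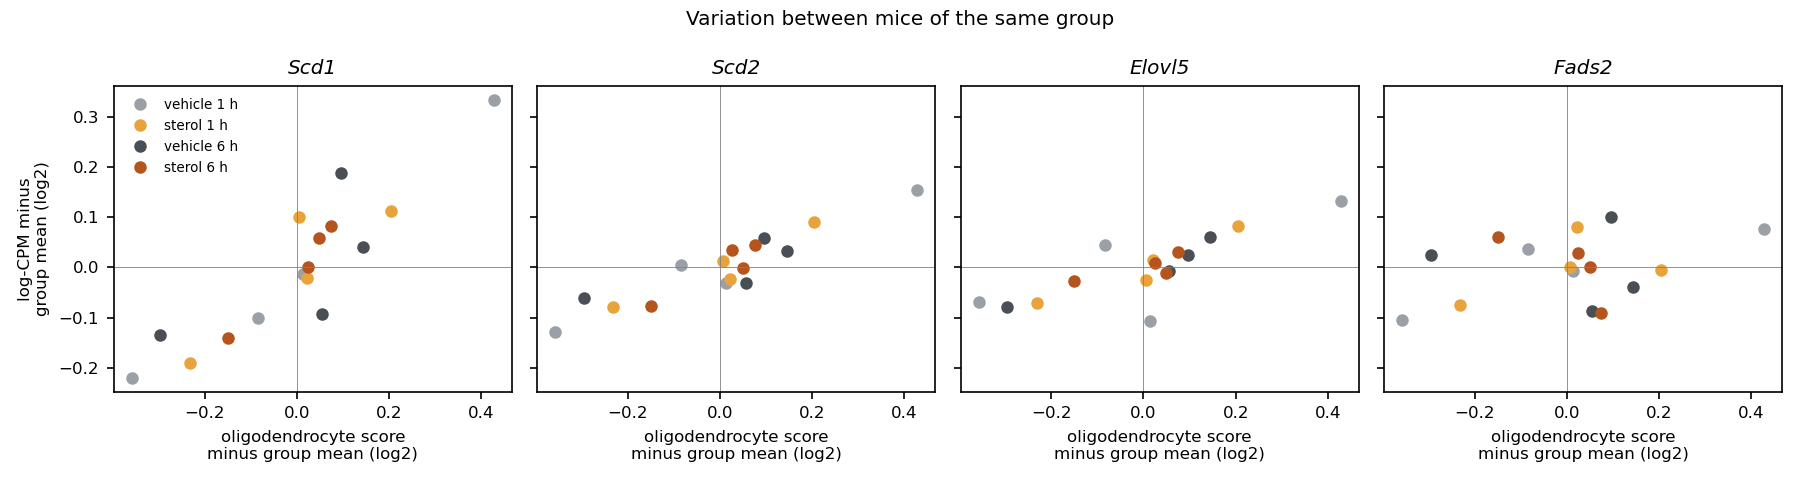
Log-CPM of Scd1, Scd2, Elovl5 and Fads2 against the mean log-CPM of 12 oligodendrocyte markers, both as deviations from the group mean, 1 point per mouse coloured by group. Scd2 (r = 0.922) and Scd1 (r = 0.901) lie close to a line, and Fads2 (r = 0.327) does not.

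At 6 h, 12 of 12 oligodendrocyte markers were negative with the sterol (median log2 difference -0.26, 0 called by edgeR, summed level 6060 to 8003 CPM in vehicle and 5226 to 6606 CPM in treated mice). At 1 h 5 of 12 were negative (median 0.0056). Between times, 10 of 12 were negative over both treatments (median -0.11), with 0 called. Within treated mice 12 of 12 were negative (median -0.23), and within vehicle mice 6 of 12 (median 0.0012). With the oligodendrocyte score as a covariate the sterol's log2 value at 6 h was -0.060 for Scd1 in place of -0.24, -0.036 for Scd2 in place of -0.12 and -0.012 for Elovl5 in place of -0.081. That of Fads2 was -0.19 in place of -0.22. At 1 h the same fit left Scd1 at -0.23 and Fads2 at -0.23. Between times, Elovl5 had -0.14 (edgeR adjusted p = 0.0411) and Fads2 -0.20 (adjusted p = 0.0227) with this covariate.

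Of 67 other genes listed for the pathway, 65 passed the filter. Between times averaged over both treatments, 41 of these were negative and 24 positive. By edgeR 2 were called lower and 0 higher, where 0.475% of all genes were called lower and 0.205% higher. Fabp7, the brain fatty acid binding protein of astrocytes and radial glia, which carries polyunsaturated chains, had 28.2 ± 6.06 CPM in vehicle 1 h, 22.7 ± 2.82 in beta-sitosterol 1 h, 18.1 ± 2.89 in vehicle 6 h and 15.1 ± 2.08 in beta-sitosterol 6 h. It fell by 0.61 on the log2 scale (SE 0.110, edgeR adjusted p = 0.0213), a change of -34.7%. Its call was lost without mouse 3, 4, 7, 12 or 13, where the adjusted p reached 0.0611, and with the astrocyte score as a covariate (0.363). Fabp7 also lost it without mice 3 and 9 together and with no filter on low counts. Mid1ip1, which promotes the activity of acetyl-CoA carboxylase, had 61.0 ± 6.12, 56.7 ± 3.51, 54.0 ± 1.51 and 46.8 ± 3.01 CPM in the same order. It fell by 0.23 (SE 0.0470, edgeR adjusted p = 0.0338), and kept its call without 5 of the 16 mice in turn (mice 5, 6, 11, 17 and 18), with adjusted p of 0.00641 to 0.0783, and lost it with the astrocyte score (0.564).

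The 65 genes had a median log2 difference between times of -0.023, against -0.0027 for all genes. The 13 genes of mitochondrial and peroxisomal fatty acid oxidation were negative in 12 of 13 (median -0.10), 0 of them called by edgeR. The lists of precursor supply (9 tested), elongation partners (9) and other desaturases with their electron donors (8) also had 0 called, with medians of -0.011, -0.028 and -0.030. Of the acyl-CoA synthetases and carriers 5 of 10 were negative, Fabp7 among them, and of the 16 control genes 8 were negative, Mid1ip1 among them.

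With the sterol, 0 of the 65 were called at either time or over both, and 40 of 65 were negative over both (median -0.020). The smallest p over both times belonged to Srebf1, Acsl4 and Nr1h2. Srebf1, the gene of the SREBP-1 factors that drive fatty acid synthesis, had a log2 value of -0.24 (SE 0.0533, edgeR adjusted p = 0.0526). It had 68.5 ± 5.03 CPM in vehicle and 61.3 ± 5.74 in treated mice at 1 h, and 72.1 ± 4.04 and 57.7 ± 5.53 CPM at 6 h. There all treated mice lay below all vehicle mice, as for 3.47% of all genes. Nr1h2, the liver X receptor beta, had -0.16 (SE 0.0398, adjusted p = 0.0611), and Acsl4, an acyl-CoA synthetase that prefers arachidonic acid, had 0.17 (SE 0.0392, adjusted p = 0.0541). Acsl4 had 94.4 ± 6.87 CPM in vehicle and 105 ± 1.95 CPM in treated mice at 1 h. Its means were 102 ± 6.07 and 117 ± 5.16 CPM at 6 h. All treated mice lay above all vehicle mice at 1 h (3.04% of all genes) and at 6 h (5.5% of all genes). Srebf1 and Acsl4 were named for their small p with the sterol, so nothing is read from the lack of overlap.

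In single comparisons the genes with the smallest p, none of them called by edgeR, were as follows. At 1 h the sterol values were 0.15 for Acsl4, 0.16 for Elovl4, an elongase of very long chains, and -0.34 for Cpt1a, which brings chains into mitochondria. At 6 h they were -0.32 for Srebf1, 0.20 for Acsl4 and -0.19 for Nr1h2. Between times within vehicle mice they were -0.64 for Fabp7, -0.24 for Fabp5, another fatty acid carrier, and -0.18 for Mid1ip1. Within treated mice they were -0.28 for Mid1ip1, -0.59 for Fabp7 and 0.15 for Acsl4. The difference of the sterol's effects was -0.16 for Slc25a1, the mitochondrial citrate carrier, 0.14 for Me1, a source of NADPH, and -0.61 for Scd4, which has few reads. Adjusted p ranged from 0.184 to 1.

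The genes whose levels over the 16 libraries were most like Fads2 were ranked by the root mean square difference of log2 levels, each gene centred on its own mean. On that measure a gene with no variation would stand at 0.165. Sat1, which acetylates polyamines, stood at 0.0506, Swap70, an actin-binding signalling protein, at 0.0551, and Epb41l2, a membrane skeleton protein, at 0.0605. Grm3, a metabotropic glutamate receptor, stood at 0.0654, and Tril, a partner of Toll-like receptors, at 0.0668. Of the other members Fads1 came nearest, at 0.0863 and rank 70 of 17054 genes, and Elovl6 was farthest at 0.222 and rank 8376. These libraries share the groups, so likeness here includes the differences between groups.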

How the data were processed

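Total RNA of 16 mouse hippocampi, selected for high integrity, was sequenced from TruSeq mRNA libraries, 1 mouse per library per the labels. The authors deposited raw counts, whole reads per Ensembl gene, and a normalized signal, which is those counts times a factor per library between 0.853 and 1.11. The submitters' processing notes name TopHat2 2.0.10, HTSeq 0.6.1p1, cutadapt, CASAVA 1.8.2, DESeq2 1.6.3 and the build GRCm38, with no role for each; the strand setting is not given in the sources used here, so reads from overlapping genes of opposite strand cannot be separated.

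Of 46603 IDs, 46005 matched a symbol in GENCODE M21. Counts were tested in R 4.3.3 with edgeR 4.0.16 (TMM, filterByExpr with minimum count 10 and total 15, robust quasi-likelihood fit to all 16 libraries, a mean per group, 12 residual degrees of freedom) over 7 contrasts. Calls are Benjamini-Hochberg adjusted p-values under 0.05 across 17055 genes, which hold 99.9% of reads. The common biological coefficient of variation was 0.0988. TPM used the union of annotated exons. Scores are mean log-CPM (prior count 2) of a marker list. The pipeline was tested on simulated data.

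The members and lists were chosen with earlier results of these data known. Named are all members and, of the other pathway genes, those called in a comparison or, with none called, the 3 with the smallest p. Alternatives were RLE scaling, no filter, a mean of at least 5 CPM, DESeq2 1.42.0, limma 3.58.1 on log2 of the deposited signal plus 1, only the groups compared, 3 marker scores as covariates, omitting the 4 libraries whose Ttr lay under 100 CPM, and leaving out each mouse. Chosen after seeing the data were a correction for length and GC content by splines of 5 degrees of freedom each and leaving out mice 3 and 9.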

Additional observations from a re-analysis of the deposited data

How the results depend on the processing

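No paired analysis was possible because replicate numbers are mouse numbers that no 2 groups share. No member's called value changed sign under any alternative. Between times averaged over both treatments, 2 members were called among 116 genes. The count was 3 with DESeq2 (Elovl5, Fads1, Fads2, among 505 genes). It was 1, Fads2, with no filter on low counts (among 133 genes), limma (116), the choroid plexus score (102) and the GC and length correction (96). It was 0 with the astrocyte score (0 genes), without mice 3 and 9 (27 genes) and without the 4 Ttr-low libraries (30 genes), and 1 to 3 over the fits without 1 mouse. With the sterol over both times, Fads2 was the 1 member among 13 genes called. The count was 2 with the strict filter, which called 497 of 11679 genes, and 4 with DESeq2, which called 1307 genes. It was 0 with the astrocyte score, the GC and length correction and the Ttr-low libraries left out, each with 0 genes called, and 0 to 3 without 1 mouse (0 without mouse 2, 3, 4, 7, 8, 11, 14, 19 or 20). DESeq2 called 2 members with the sterol at 1 h (54 genes), 1 at 6 h (123 genes) and 1 between times in vehicle mice (94 genes), where edgeR called 0. The counts for the difference of effects and for times within treated mice stayed at 0 under each alternative run. Causes of these shifts were not tested. The relations to marker scores kept their direction and side of the threshold with RLE scaling. Counting error was not separated from the spread between mice; Elovl2, with 409 to 618 reads per library, is the member it touches most.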
